A study of Mus musculus with 8 samples.

Results

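The genes described here are 10 nuclear genes for chaperones and proteases of mitochondria: Hspd1, Hspe1, Hspa9, Trap1, Dnaja3, Lonp1, Clpp, Clpx, Yme1l1 and Afg3l2. They were chosen by symbol, as the matrix chaperones and the matrix or inner membrane proteases linked to the mitochondrial unfolded protein response. No measured value entered the rule, but earlier results of these data were known when the genes were chosen. All 10 were found once in the deposited table, among 48328 Ensembl genes, and all 10 passed the expression filter. The values are FPKM, fragment numbers scaled to transcript length and to the mapped fragments of a library. They come from the tibialis anterior, a fast hindlimb muscle, of C57BL/6J mice at 24 months of age, with 4 libraries from K320E-skm mice, whose skeletal muscle carries a mutant form of the mitochondrial DNA helicase Twinkle, and 4 from wild-type mice. By the labels each genotype held 2 males and 2 females. The labels give neither the promoter that drives it, nor the alleles that the wild-type mice carry, nor whether RNA of several animals was pooled. They name no treatment.

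Most mitochondrial proteins are made in the cytosol and reach the matrix unfolded. Hspa9 (mortalin) pulls them in and holds them, its J-domain partner Dnaja3 delivers clients, and the Hspd1 barrel with its Hspe1 lid folds them. Proteins that fail are removed by Lonp1 and by the ClpXP complex in the matrix, and by the AAA proteases Yme1l1 and Afg3l2 in the inner membrane. When misfolded proteins pile up or respiration fails, cells can raise this machinery through transcription factors of the ATF4, ATF5, CHOP and C/EBP beta group, which is the mitochondrial unfolded protein response.

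Promoter sequences are shown for the genes on which the results turn and for the pair that gave this response its textbook promoter. They come from RefSeq (GRCm38.p6), whose table matched 8 of the 10 genes, all but Hspa9 and Afg3l2. Hspd1 and Hspe1 lie head to head on chromosome 1 and share the stretch between them. In the 250 bases before the start of Hspe1 the letters TGCAAT, the core of the C/EBP type of site that CHOP dimers bind, stood 199 bases upstream, and GAANNTTC, a pair of facing heat shock units, stood 84 bases upstream. The first 2 lines below are these stretches on the plus strand (chr1:55087938-55087965 and chr1:55088054-55088081), and both lie in annotated exons. The third is the cyclic AMP response element TGACGTCA, 47 bases upstream of Trap1 on the minus strand (chr16:4077840-4077867). Capitals mark the motif.

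Hspe1 C/EBP type site: cgccggggcccTGCAATctgcatgcggc
Hspe1 heat shock units: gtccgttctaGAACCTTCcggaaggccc
Trap1 cyclic AMP element: tcgcgcgccaTGACGTCActgagccgcc

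The upstream stretches of Lonp1 (minus strand, chr17:56626904-56627153) and Yme1l1 (plus strand, chr2:23156255-23156368, cut where an annotated exon begins) are shown because these were the members with the highest and the lowest fold change. Capitals mark a GC box, GGGCGG on either strand, the only motif searched that the Lonp1 stretch holds. The Yme1l1 stretch holds none, and the GC boxes of Yme1l1 lie 51 and 45 bases upstream, past its end.

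Lonp1 upstream: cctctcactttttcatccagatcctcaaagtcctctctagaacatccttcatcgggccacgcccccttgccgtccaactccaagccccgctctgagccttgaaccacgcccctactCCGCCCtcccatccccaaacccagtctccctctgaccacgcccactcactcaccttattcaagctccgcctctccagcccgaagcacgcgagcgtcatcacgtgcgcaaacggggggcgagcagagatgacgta
Yme1l1 upstream: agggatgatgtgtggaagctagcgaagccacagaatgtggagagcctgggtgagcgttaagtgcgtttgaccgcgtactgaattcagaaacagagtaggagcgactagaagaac

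Of 32851 promoter windows in that table, cut to the 250 bases before the start and read on both strands, 7.32% held TGCAAT, 6.69% GAANNTTC, 32.7% GGGCGG and 1.55% the cyclic AMP element. The C/EBP type site and the heat shock pair were found in 2 of the 8 members, Hspd1 and Hspe1, which read the same shared stretch. The GC box was found in 6, and the nuclear receptor site AAGGTCA (4.08% of windows) in Hspd1, Hspe1 and Trap1. The C/EBP-ATF composite TGATGNAA, the element of many ATF4 targets, was found in none of the 8 and in 3.45% of all windows, and the palindromic NRF1 site in none and in 0.782%. These are matches of letters in a short window and show neither binding nor its absence.

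The summed FPKM of a library lay between 731824 and 858029. Depth is unknown, as the table holds no counts, and no counting interval can be given. Twnk, which encodes Twinkle, averaged 4.62 ± 0.557 FPKM in K320E-skm muscle against 2.37 ± 0.245 in wild-type muscle (SD, n = 4 each) without overlap. FPKM per gene do not tell an introduced copy from the endogenous gene. The library K320E-skm 4 goes against its sex label. It is labelled male but held Xist at 10.2 FPKM and Ddx3y at 0.0117 FPKM, where the other 3 libraries labelled male held Ddx3y at 14.3 to 21.6 FPKM. Several of the results below that turn on it, but not all, are also given without it. On a fixed scale, groups without overlap cannot come to overlap when a library is left out. Muscle fibre markers were abundant in all libraries except that Myh4 was listed at 0 in 4 of them, K320E-skm 2, K320E-skm 3, K320E-skm 4 and wild-type 4. An exact 0 can be a failed estimate.

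The members spanned a range of levels from Hspa9 to Afg3l2, on a scale that is per length and so can be compared between genes. Hspa9 averaged 86.4 FPKM over the 8 libraries and stood above 95.7% of the 10521 tested genes. Hspe1 at 39.0, Hspd1 at 37.8, Trap1 at 30.8 and Dnaja3 at 21.7 FPKM followed. The proteases were lower, with Lonp1 at 14.4, Clpx at 14.02, Yme1l1 at 13.6, Clpp at 11.9 and Afg3l2 at 9.23 FPKM. Each chaperone lay above each protease in its mean. Hspe1 and Hspd1 were not separated, since Hspe1 was the higher in 4 of 8 libraries, and neither were Lonp1 and Clpx or Clpx and Yme1l1, each also in this order in 4 of 8. Yme1l1 lay above Clpp in 6 of 8. The other neighbours kept their order in all 8 libraries.

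The main comparison asked how muscle with mutant Twinkle differed from wild-type muscle in these genes. None of the 10 was called by limma, the linear model fitted over all tested genes with a term for sex, at an adjusted p under 0.05, where 0.019% of all tested genes were called in either direction. Adjusted p of the members ran from 0.339 for Yme1l1 to 0.962 for Hspe1. At an unadjusted p under 0.05 there was 1 of 10, Yme1l1, lower, against 13.1% of all tested genes, 12.0% lower and 1.12% higher. Log2 fold changes below are on the scale of log2(FPKM + 1) with a 95% interval from the same fit. Without the sex term, whose label for K320E-skm 4 is in doubt, there were 2, Yme1l1 lower (limma unadjusted p = 0.0185) and Lonp1 higher (limma unadjusted p = 0.0435), at limma adjusted p of 0.293 and 0.334, against 14.7% of all tested genes, 13.6% lower and 1.07% higher. The median over the 10 was 0.05, and over all tested genes −0.14. After the libraries were rescaled by median ratios, which brings the typical gene to a common level, these medians were 0.25 and 0.02. A fold change above 0 was found for 6 of 10 members against 2152 of 10521 genes as deposited, and for 8 of 10 members against 5686 of 10521 genes after rescaling. None was called then either, with a smallest adjusted p of 0.380. At an unadjusted p under 0.05 there were then 2 members, Hspa9 and Lonp1, both higher, against 9.39% of all tested genes, 5.67% higher and 3.72% lower. Twnk, at a ratio of means of 1.95, was not called either. Its limma adjusted p was 0.143 as deposited and 0.0733 after rescaling. An absent call thus does not show an absent difference.

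**Figure D1:**
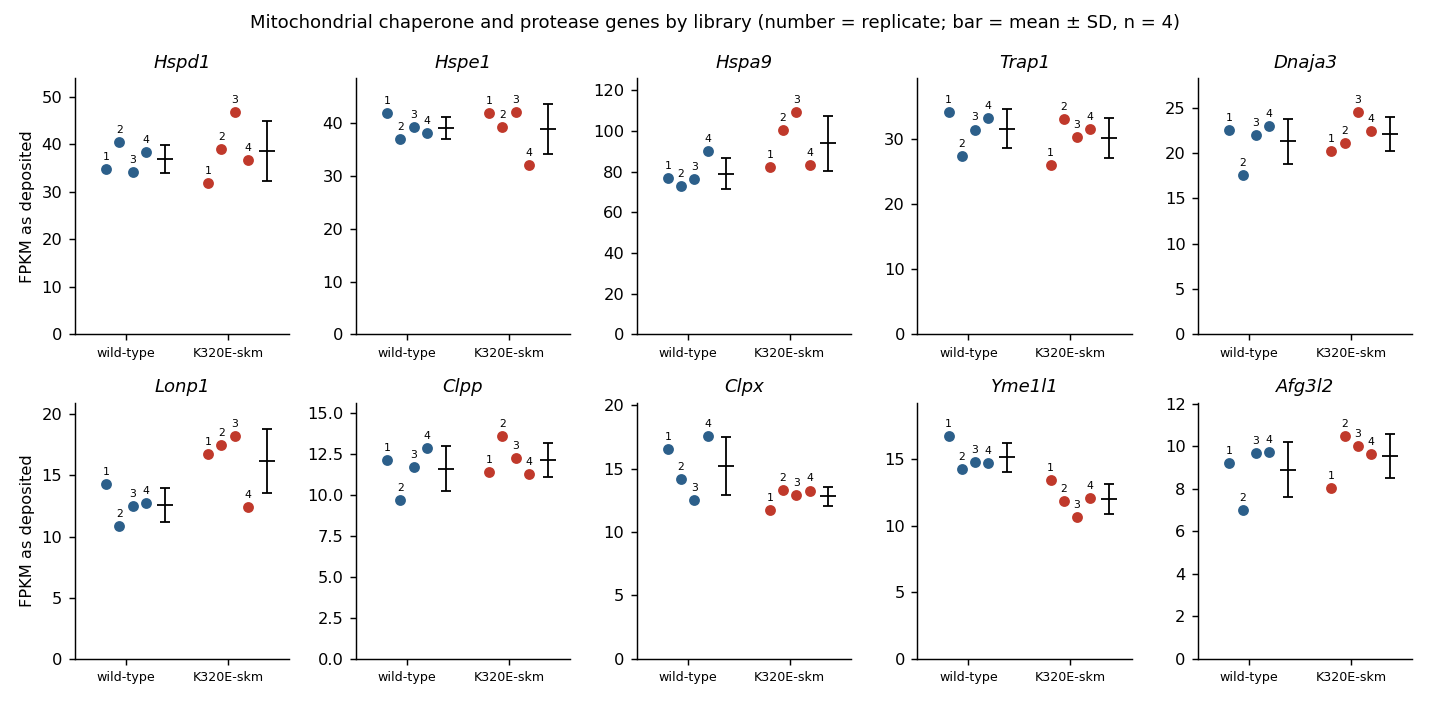
FPKM of each of the 10 genes on a linear axis, with 1 point per library, numbered by replicate, blue for wild-type and red for K320E-skm; the bar beside each group is the mean ± SD (n = 4). Only Yme1l1 has all 4 K320E-skm points below all 4 wild-type points, and Lonp1 is higher in K320E-skm 1 to 3 but not in K320E-skm 4.

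Hspa9 (ENSMUSG00000024359, chr18:34937414-34954357), the Hsp70 of the matrix and motor of import, was at 82.2, 100.5, 109 and 83.3 FPKM in libraries K320E-skm 1 to 4. In wild-type 1 to 4 it was at 76.8, 72.9, 76.4 and 90.1 FPKM. K320E-skm 2 and 3 were the highest libraries, and wild-type 4 lay above K320E-skm 1 and 4, so the groups overlapped. The log2 fold change was 0.24 (−0.06 to 0.54, exact permutation p of the means = 0.143), and 0.26 without K320E-skm 4. After rescaling it was 0.44 (0.09 to 0.79, limma unadjusted p = 0.0205, adjusted p = 0.429), and the groups still overlapped, at 88.3 to 121 against 58.3 to 90.5 FPKM (exact permutation p = 0.0571).

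Hspd1 (ENSMUSG00000025980, chr1:55077835-55088243, minus strand) encodes Hsp60, the folding barrel. It was at 31.8, 39.1, 46.9 and 36.7 FPKM in libraries K320E-skm 1 to 4 and at 34.9, 40.4, 34.2 and 38.4 in wild-type 1 to 4. K320E-skm muscle held both the lowest and the highest library, with an SD of 6.28 against 2.92 FPKM, and the log2 fold change was 0.05 (−0.23 to 0.33). Its lid Hspe1 (ENSMUSG00000073676, chr1:55088132-55091307, plus strand), or Hsp10, was at 41.9, 39.3, 42.1 and 32.0 FPKM against 41.9, 37.1, 39.3 and 38.2 in wild-type 1 to 4. The low library was K320E-skm 4, and the log2 fold change was −0.02 (−0.32 to 0.29), or 0.08 without that library. After rescaling both lay above 0, at 0.24 and 0.18, with overlap and intervals that include 0. The pair shares the promoter stretch shown above, but its ratio was not constant from library to library. The ratio of Hspd1 to Hspe1 was 0.758, 0.993, 1.11 and 1.14 in K320E-skm 1 to 4 and 0.833, 1.09, 0.871 and 1.01 in wild-type 1 to 4 (exact permutation p = 0.686). Their annotated ends overlap by 112 bases on opposite strands, and whether the counting used strand is not given in the sources used here.

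Trap1 (ENSMUSG00000005981, chr16:4039971-4077827), the Hsp90 of mitochondria, was at 25.9 to 33.0 FPKM in K320E-skm and 27.4 to 34.1 FPKM in wild-type muscle. Dnaja3 (ENSMUSG00000004069, chr16:4639989-4707695), the J-domain partner of Hspa9, was at 20.3 to 24.5 and 17.6 to 22.9 FPKM. Both overlapped almost wholly between the genotypes. Their log2 fold changes were −0.06 (−0.37 to 0.24) and 0.06 (−0.25 to 0.36), and the intervals leave room for a difference of that size in either direction. After rescaling they were 0.13 and 0.25, with intervals that include 0. The annotated Dnaja3 gene overlaps Coro7 on the opposite strand and Vasn on its own strand, at mean levels of 2.65 and 1.94 FPKM, so a part of its fragments could be divided with them.

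Lonp1 (ENSMUSG00000041168, chr17:56614297-56626887) encodes the main ATP-driven protease of the matrix, which also binds mitochondrial DNA and degrades its packaging factor Tfam when Tfam is not bound to DNA. It was at 16.8, 17.5, 18.2 and 12.4 FPKM in libraries K320E-skm 1 to 4 and at 14.3, 10.9, 12.5 and 12.7 in wild-type 1 to 4. K320E-skm 1, 2 and 3 were higher than every wild-type library, while K320E-skm 4 lay below 3 of them. Mean levels were 16.2 ± 2.62 and 12.6 ± 1.39 FPKM (SD, n = 4 each), a ratio of 1.29, with a log2 fold change of 0.33 (−0.01 to 0.67, limma adjusted p = 0.387, exact permutation p = 0.114). Without K320E-skm 4 the log2 fold change was 0.46 (limma unadjusted p = 0.0113, adjusted p = 0.371) and the groups did not overlap. After rescaling of all 8 libraries it was 0.52 (0.18 to 0.86, limma unadjusted p = 0.00765, adjusted p = 0.380). The rescaled levels were 18.6, 17.3, 20.1 and 13.1 against 10.9, 10.1, 13.001 and 12.8 FPKM. The separation there is narrow, between K320E-skm 4 and wild-type 3. On this scale Lonp1 was the 1 member of 10 without overlap, against 5.77% of all tested genes, 3.46% higher and 2.31% lower.

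The ClpXP protease joins the proteolytic chamber Clpp to the unfoldase Clpx. Clpp (ENSMUSG00000002660, chr17:56990305-56996188) was at 11.4, 13.6, 12.3 and 11.3 FPKM in libraries K320E-skm 1 to 4 and 12.2, 9.68, 11.7 and 12.9 in wild-type 1 to 4, with full overlap and a log2 fold change of 0.06 (−0.23 to 0.36). Clpx (ENSMUSG00000015357, chr9:65294260-65330658) was at 11.7, 13.3, 12.96 and 13.3 FPKM against 16.5, 14.2, 12.5 and 17.6. Wild-type 3 was the exception among libraries that otherwise all lay above the K320E-skm libraries. The log2 fold change of Clpx was −0.22 (−0.52 to 0.08, limma adjusted p = 0.481) and after rescaling −0.03, or 0.07 if wild-type 4 was left out as well. Without wild-type 3 as deposited the Clpx groups did not overlap. The ratio of chamber to unfoldase averaged 0.948 ± 0.0707 in K320E-skm muscle against 0.772 ± 0.112 in wild-type muscle (SD, n = 4 each, exact permutation p of the log2 ratios = 0.0571), and overlapped through wild-type 3 at 0.936 and K320E-skm 4 at 0.852.

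Yme1l1 (ENSMUSG00000026775, chr2:23156369-23199260) is the inner membrane protease that faces the intermembrane space and cuts Opa1, the fusion protein, and import subunits such as Timm17a. It was at 13.4, 11.8, 10.7 and 12.1 FPKM in libraries K320E-skm 1 to 4 and at 16.8, 14.3, 14.8 and 14.8 in wild-type 1 to 4. No K320E-skm library reached the lowest wild-type library. Mean levels were 12.0 ± 1.13 and 15.2 ± 1.10 FPKM (SD, n = 4 each, exact permutation p = 0.0286, two-sided and the smallest possible here), with a log2 fold change of −0.31 (−0.57 to −0.06, limma unadjusted p = 0.0215, adjusted p = 0.339). Without K320E-skm 4 the log2 fold change was −0.29 (limma unadjusted p = 0.0625, adjusted p = 0.455). Of all tested genes 9.92% did not overlap as deposited, 9.59% lower and 0.333% higher, so 1 of 10 members is close to that background. After rescaling the Yme1l1 groups overlapped, at 11.7 to 14.9 against 12.7 to 15.4 FPKM, and the log2 fold change was −0.13 (−0.37 to 0.12, limma unadjusted p = 0.266). The summed level of the 9 muscle fibre markers in the table also was lower without overlap, at 16144 to 19319 against 20268 to 25713 FPKM, and overlapped without Myh4, at 16144 to 19189 against 19158 to 21356. After rescaling this sum overlapped both with Myh4 and without it. Its part in the Yme1l1 difference was not tested, and in bulk tissue fewer cells of a type and less RNA per cell cannot be told apart. The summed markers of the other 9 cell types all overlapped between the genotypes, among them macrophages at 13.96 to 38.8 against 12.3 to 42.5 FPKM and adipocytes at 20.9 to 32.2 against 7.54 to 98.2 FPKM. Wild-type 1 was the highest library for macrophages and wild-type 2 for adipocytes.

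Afg3l2 (ENSMUSG00000024527, chr18:67404764-67449172) forms the inner membrane protease that faces the matrix and processes a ribosomal subunit of mitochondria. It was at 8.06, 10.5, 10.03 and 9.63 FPKM in libraries K320E-skm 1 to 4 and 9.24, 6.9997, 9.68 and 9.73 in wild-type 1 to 4. The groups overlapped, with wild-type 2 the lowest library, and the log2 fold change was 0.09 (−0.23 to 0.42), or 0.27 (−0.08 to 0.62) after rescaling. Its partners Spg7 and Afg3l1 were not analysed here.

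**Figure D2:**
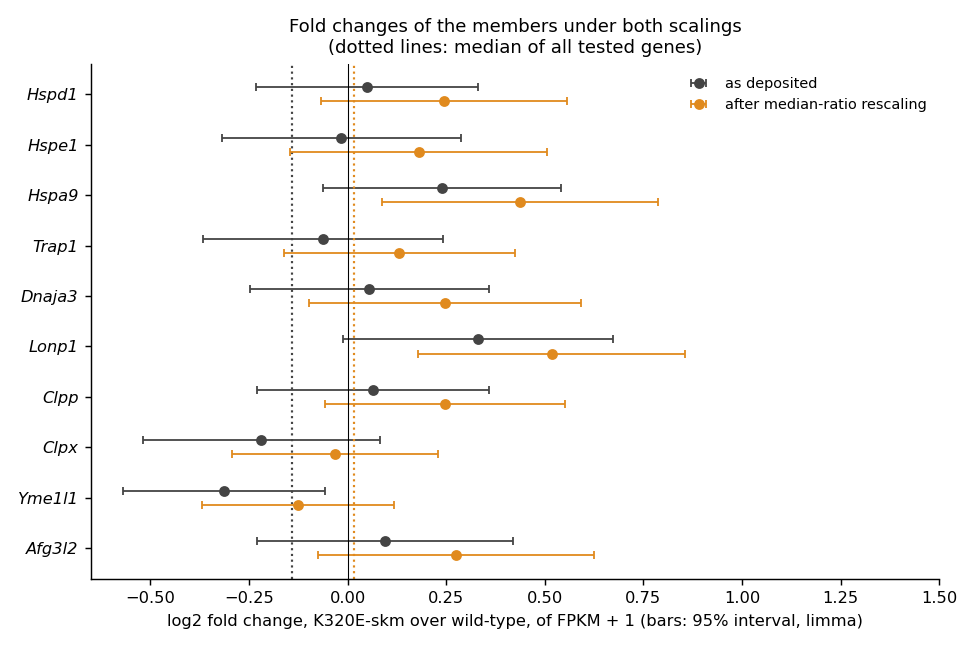
Log2 fold change of FPKM + 1, K320E-skm over wild-type, for each member with its 95% interval from limma, as deposited in grey and after median-ratio rescaling in orange; dotted lines are the medians of all tested genes, −0.14 and 0.02. Lonp1 and Hspa9 are furthest to the right and Yme1l1 and Clpx furthest to the left under both scalings.

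Because the scaling of whole libraries moved every member by a similar amount, the members were also compared with each other inside each library, where scaling cancels. Of the 45 ratios between 2 members, 4 did not overlap between the genotypes, or 8.89%, against 5.54% of all pairs of tested genes. That share is near the background, and the 4 ratios have genes in common, so they are values and not separate findings. Each was at an exact permutation p of 0.0286, the smallest possible.

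The ratio of Lonp1 to Yme1l1 was 1.25, 1.47, 1.71 and 1.02 in K320E-skm 1 to 4 and 0.853, 0.764, 0.844 and 0.861 in wild-type 1 to 4. Every wild-type library thus held less Lonp1 than Yme1l1 RNA per length, and every K320E-skm library more. The ratio of Hspa9 to Yme1l1 was 6.12, 8.48, 10.3 and 6.88 against 4.58, 5.11, 5.15 and 6.10, with K320E-skm 1 and wild-type 4 almost touching. Hspa9 to Clpx was 7.01, 7.53, 8.44 and 6.27 against 4.65, 5.13, 6.11 and 5.13. Hspe1 to Lonp1 was lower in K320E-skm muscle, at 2.50, 2.25, 2.31 and 2.59 against 2.93, 3.40, 3.14 and 3.01. The ratios of Hspe1 to Yme1l1 and to Clpx, by contrast, overlapped between the genotypes.

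**Figure D3:**
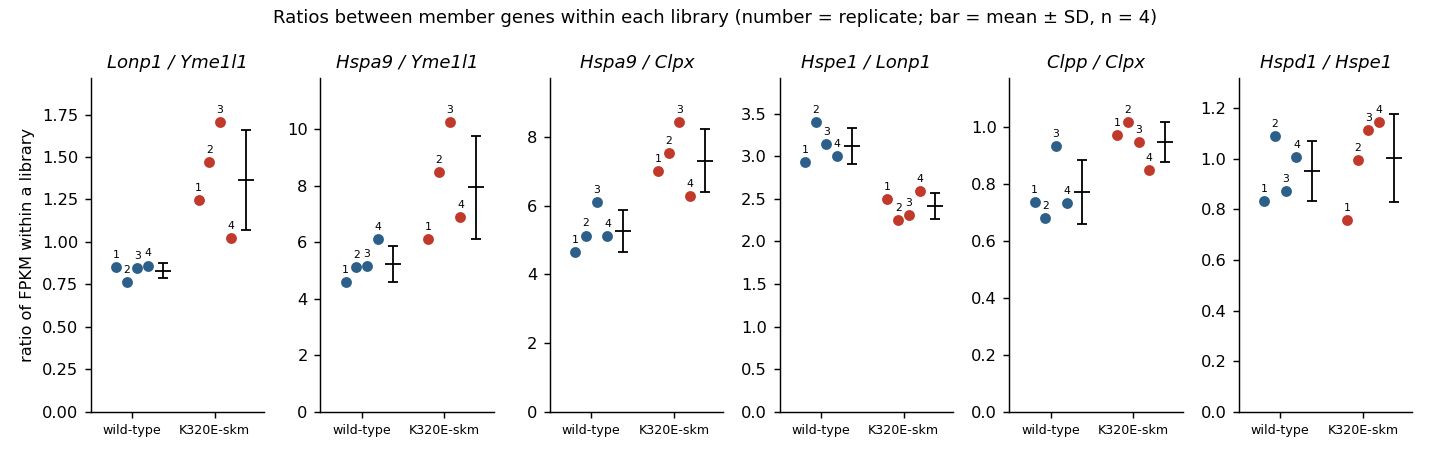
Ratio of the FPKM of 2 members within each library on linear axes, 1 point per library numbered by replicate, with the mean ± SD of each genotype (n = 4). The first 4 panels are the ratios without overlap; Clpp to Clpx and Hspd1 to Hspe1, the partners of 2 complexes, overlap.

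To set the members beside the mitochondria of the same library, each was divided by the geometric mean of 22 genes of mitochondrial content, among them citrate synthase, porins and respiratory subunits. That mean was 105, 137, 133 and 131 FPKM in libraries K320E-skm 1 to 4 and 134, 111, 138 and 146 in wild-type 1 to 4, with K320E-skm 1 and wild-type 2 low. On this scale 1 of 10 members did not overlap, against 3.14% of all tested genes, 0.494% higher and 2.64% lower. It was Afg3l2, at 7.66%, 7.63%, 7.56% and 7.36% of the content genes in K320E-skm 1 to 4 and 6.90%, 6.29%, 7.01% and 6.68% in wild-type 1 to 4 (exact permutation p = 0.0286). Hspa9 was at 78.1%, 73.2%, 82.5% and 63.7% against 57.4%, 65.5%, 55.3% and 61.8%, and overlapped through K320E-skm 4 and wild-type 2 (exact permutation p = 0.0571). Without K320E-skm 4 it averaged 77.9% ± 4.64 (n = 3) against 60.0% ± 4.57 (n = 4). Lonp1 was at 15.9%, 12.7%, 13.7% and 9.46% against 10.7%, 9.79%, 9.06% and 8.72% (exact permutation p = 0.0857), again with K320E-skm 4 the low library, and averaged 14.1% ± 1.66 (n = 3) against 9.57% ± 0.868 (n = 4) without it. This scale was chosen after the data were seen.

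The other genes of mitochondrial protein quality control and the related lists held 124 genes, of which 121 were in the table and 116 were tested. None was called, with a smallest limma adjusted p of 0.294, or 0.133 after rescaling. In the further chaperones and co-chaperones of mitochondria (16 tested, median log2 fold change −0.03, and 0.14 after rescaling), 1 gene was under an unadjusted p of 0.05. It was Dnajc19, a J-protein of the import motor, at 43.8 ± 6.04 against 58.8 ± 7.42 FPKM (SD, n = 4 each, log2 fold change −0.42, and −0.22 after rescaling). Its relative Dnajc15 was at 36.1 ± 3.78 against 44.3 ± 3.02 FPKM (−0.29), and Bcs1l, which assembles complex III, at 3.81 ± 0.476 against 4.56 ± 0.188 FPKM (−0.21). Each of these 3 genes overlapped. After rescaling 12 of the 16 lay above 0, against 5686 of 10521 tested genes. Another gene, higher, was then the 1 under an unadjusted limma p of 0.05, against 5.67% of all tested genes higher and 3.72% lower. Grpel1, the nucleotide exchange factor of Hspa9, was at 9.40 ± 0.161 and 9.59 ± 1.35 FPKM, and the ratio of Hspa9 to Grpel1 was 8.80 to 11.4 in K320E-skm and 7.16 to 9.43 in wild-type muscle.

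The further proteases, peptidases and scaffolds (18 tested) had a median of −0.04, and 0.14 after rescaling. Of these 18, Ghitm was the 1 gene under that p, against 1.12% of all tested genes higher and 12.0% lower. It encodes an inner membrane protein that binds Afg3l2, and was at 83.0, 85.0, 94.1 and 59.3 FPKM in libraries K320E-skm 1 to 4 and 54.5, 48.8, 64.5 and 60.6 in wild-type 1 to 4. As for Lonp1, K320E-skm 4 was the low library of its genotype, and the only one that overlapped with wild-type libraries (log2 fold change 0.47, limma unadjusted p = 0.0213, adjusted p = 0.339, and 0.67 after rescaling). Without that library the Ghitm means were 87.4 ± 5.90 (n = 3) and 57.1 ± 6.89 FPKM (n = 4). Immp1l, of the inner membrane peptidase, was at 19.7 ± 2.17 against 24.4 ± 4.29 FPKM and the filament protein Lactb at 3.96 ± 0.735 against 5.21 ± 1.18 FPKM. In protein import (25 tested, median −0.05, and 0.13 after rescaling), Timm29 of the carrier translocase was at 6.31 ± 0.797 against 8.09 ± 0.944 FPKM (limma unadjusted p = 0.0398), and Timm17b, lower without overlap as deposited, was at 8.03 ± 1.22 against 9.84 ± 0.649 FPKM. Of all tested genes 9.59% were lower without overlap as deposited. The inner membrane protein Romo1 was at 41.3 ± 2.87 against 50.7 ± 6.89 FPKM, and the most abundant member, the small carrier chaperone Timm8b, at 91.9 ± 17.2 against 96.5 ± 12.6 FPKM. After rescaling these 4 import genes lay between −0.14 and 0.12. Of all 25 import genes 20 then lay above 0, against 5686 of 10521 tested genes. Under an unadjusted limma p of 0.05 there were then 2, both higher, against 5.67% of all tested genes higher and 3.72% lower. Without overlap there were also 2, both higher, against 3.46% higher and 2.31% lower.

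The regulators (16 tested) had a median of 0.02, and 0.19 after rescaling. Under an unadjusted p of 0.05 there were 3, all higher in K320E-skm muscle, against 1.12% of all tested genes higher and 12.0% lower. After rescaling there were 4, all higher, against 5.67% higher and 3.72% lower. Cebpb, the C/EBP beta gene, was at 17.9, 30.6, 27.8 and 21.2 FPKM in libraries K320E-skm 1 to 4 and 15.9, 13.6, 13.3 and 14.1 in wild-type 1 to 4 (log2 fold change 0.71, limma unadjusted p = 0.0014, adjusted p = 0.294). Ddit3, which encodes CHOP, was at 9.92, 11.7, 15.1 and 9.32 against 8.17, 7.69, 6.28 and 7.15 FPKM (0.57, adjusted p = 0.309). Neither overlapped between the genotypes, where 0.333% of all tested genes were higher without overlap as deposited and 9.59% lower. Atf5, the mammalian factor likened to worm ATFS-1, was at 14.2, 14.9, 20.3 and 10.3 against 11.9, 6.78, 7.83 and 8.02 FPKM (0.71, adjusted p = 0.313) and overlapped through K320E-skm 4 and wild-type 1, though not after rescaling. Without K320E-skm 4 the Atf5 means were 16.5 ± 3.33 (n = 3) and 8.64 ± 2.27 FPKM (n = 4). Eif2ak1, a kinase that phosphorylates eIF2 alpha, went the other way, at 4.65 ± 0.636 against 5.75 ± 0.469 FPKM, and was lower without overlap as deposited but not after rescaling (log2 fold change −0.26, limma unadjusted p = 0.0548, and −0.10 after rescaling). It was named after its values were seen. Atf4, the most abundant regulator, was at 50.3 ± 8.08 and 49.2 ± 8.39 FPKM. The fold changes of Cebpb, Ddit3 and Atf5 lay above that of each of the 10 chaperones and proteases, whose highest was 0.33 for Lonp1. These 3 were named for the smallest p of their list, and all 10 members are shown, so that choice partly sets this order. The median of the 16 tested regulators lay below that of the members, at 0.02 against 0.05, and at 0.19 against 0.25 after rescaling. These values of the regulators were known when the lists were made.

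The cytosolic and endoplasmic reticulum relatives of the members (19 tested, median 0.03) had no gene under an unadjusted p of 0.05 as deposited. After rescaling there were 5, all higher, against 5.67% of all tested genes, and their median was 0.23, close to the 0.25 of the members. Hspa8, the constitutive cytosolic Hsp70, was at 315 ± 39.3 against 285 ± 68.8 FPKM and Hspa5, that of the endoplasmic reticulum, at 53.1 ± 9.60 against 45.7 ± 7.78. The ratio of Hspa9 to Hspa8 was 0.298 ± 0.0237 and 0.290 ± 0.0732, and of Hspa9 to Hspa5 1.79 ± 0.242 and 1.76 ± 0.269 (SD, n = 4 each, exact permutation p of the log2 ratios = 0.800 and 0.886). Hsp90aa1 was at 16.7 ± 2.53 against 13.7 ± 1.70 FPKM, and Trap1 relative to it at 1.83 ± 0.310 against 2.34 ± 0.474 (exact permutation p of the log2 ratios = 0.143). Trap1 relative to Hsp90ab1 was at 0.159 ± 0.0103 and 0.171 ± 0.0333, and relative to Hsp90b1 at 1.196 ± 0.149 and 1.11 ± 0.196. Hspd1 relative to Tcp1, a subunit of the cytosolic folding barrel, was at 0.632 ± 0.131 and 0.599 ± 0.0623. Dnaja3 relative to Dnaja1 was at 2.41 ± 0.561 and 2.24 ± 0.360, and relative to Dnaja2 at 0.632 ± 0.0667 and 0.505 ± 0.110. All 9 of these ratios, that to Grpel1 included, overlapped between the genotypes. Dnaja2 itself was at 35.1 ± 3.28 against 43.0 ± 5.53 FPKM (log2 fold change −0.28, and −0.09 after rescaling). The chaperonin subunit Cct6a was at 37.6 ± 4.82 against 43.0 ± 5.19 FPKM (−0.19, and 0.01 after rescaling). After rescaling 3 of the 19, all of them other chaperonin subunits, were higher without overlap, against 3.46% of all tested genes higher and 2.31% lower.

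The 22 genes of mitochondrial content had a median log2 fold change of −0.04 as deposited and 0.16 after rescaling. Tfam, the packaging factor of mitochondrial DNA and a substrate of Lonp1 protein, was at 10.1, 11.1, 10.1 and 12.3 FPKM in libraries K320E-skm 1 to 4 and 13.6, 12.2, 13.6 and 18.5 in wild-type 1 to 4 (log2 fold change −0.37, limma unadjusted p = 0.0349, adjusted p = 0.360, and −0.19 after rescaling). K320E-skm 4 and wild-type 2 overlapped by a small margin. The porins Vdac1 and Vdac3 were at 234 ± 26.0 against 291 ± 28.3 FPKM and at 95.4 ± 4.10 against 111 ± 13.97 FPKM, and the ATP synthase subunit Atp5b at 797 ± 75.6 against 816 ± 106 FPKM (SD, n = 4 each). The porin Vdac2, named after its values were seen, was at 95.4 ± 1.99 against 106 ± 7.52 FPKM, the 1 content gene that was lower without overlap as deposited (exact permutation p = 0.0286), and overlapped after rescaling. This is 1 of 22 content genes, where 9.59% of all tested genes were lower without overlap as deposited.

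**Figure D4:**
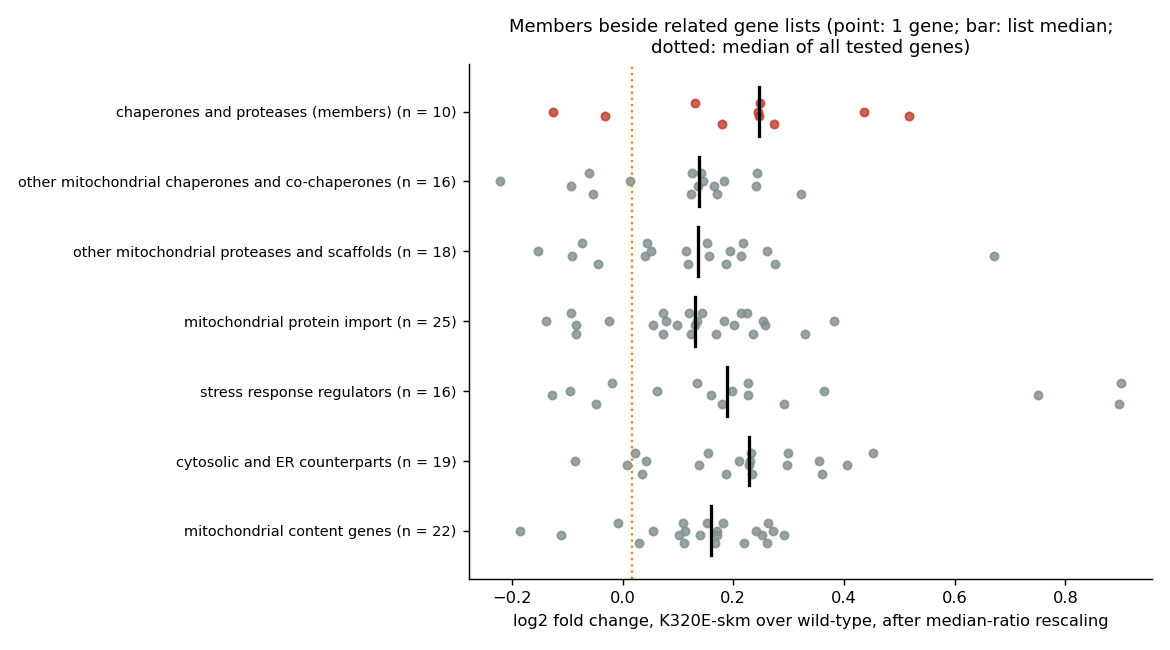
Log2 fold change after median-ratio rescaling, K320E-skm over wild-type, with 1 point per tested gene in the members (red) and the 6 other lists (grey); black bars are list medians and the dotted line the median of all tested genes, 0.02. The medians lie between 0.13 for import and 0.25 for the members, and the 3 points furthest right among the regulators are Cebpb, Atf5 and Ddit3.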

How the data were processed

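Total RNA of the tibialis anterior was extracted with Trizol and sequenced with a stranded kit, per the labels' protocols. The deposited values are FPKM per gene. The tools that the authors used were CASAVA, TopHat2 2.0.10 and Cufflinks 2.1.1, with build mm10, per the submitters' processing notes. Which annotation, strand setting and filters were used is not given in the sources. FPKM are relative to all mapped fragments, and Cufflinks divides fragments among overlapping genes. All 8 columns were matched to samples by name (0 left unmapped), no 2 libraries were identical, and symbols came from GENCODE M21 (GRCm38; 47864 of 48328 IDs matched).

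Genotype and sex were taken from the labels, so the sex term counted K320E-skm 4 as male. No fit with the sex of that library changed was run. The labels do not say from how many animals the samples came, so p-values measure only the spread between these samples. Log2(FPKM + 1) was fitted with limma 3.58.1 in R 4.3.3 on genes with 1 FPKM or more in at least 4 libraries (10521 genes, 5 residual degrees of freedom), with sex and genotype as terms, a trended empirical Bayes prior, and two-sided p under Benjamini-Hochberg adjustment over all tested genes. For single values the exact two-sided permutation over 70 assignments was used. It compared mean log2 ratios for every ratio of 2 genes, and untransformed means otherwise. Tested on simulated data of the same comparison (K320E-skm and wild-type, 10521 genes drawn independently), the fit recovered 87 of 100 genes changed by 1 and 97 of 100 changed by 2 on the log2 scale, with 7 false calls. The changed genes were drawn only from those with a mean log2(FPKM + 1) above 2. Changes below 1, as all members had, were not simulated, so their recovery is not known. Median-ratio factors used genes above 0 in every library.

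Named genes were the 10 members, Twnk, up to 3 genes with the smallest p and the most abundant gene of each list without a call, and fixed family counterparts; Grpel1 and the 45 ratios between members were added after values were seen. Members and lists were chosen with earlier results of these data known. Alternatives were another pseudocount (0.1), no filter or 5 FPKM, other scalings, a fit without sex, a replicate block, robust fits, weights, protein-coding genes alone and leaving out each library. Python 3.11.15, pandas 2.3.3 and matplotlib 3.10.9 were used.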

Additional observations from a re-analysis of the deposited data

How the results depend on the processing

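The count of called members was 0 of 10, and of called genes in the other lists 0 of 116, as reported and under all 27 alternatives run for each, 18 fixed at the start and 9 added after seeing the data; the smallest adjusted p of a member under any of the 18 was 0.139, for Yme1l1 with array weights. The median log2 fold change of the members, 0.05 as deposited, was 0.25 after median-ratio rescaling, 0.22 after quantile normalization and 0.25 after rescaling with no sex term. Leaving out 1 library at a time it ran from −0.04 to 0.10 as deposited and from 0.14 to 0.33 after rescaling (0.26, 0.26, 0.17 and 0.25 without K320E-skm 1, 2, 3 and 4, and 0.17, 0.14, 0.33 and 0.30 without wild-type 1, 2, 3 and 4); these shifts follow from the scaling, which moved the median of all genes from −0.14 to 0.02. As deposited 1 member, Yme1l1, did not overlap, and leaving out 1 library gave 1 to 2, a count that cannot fall when a library is left out and so says nothing about stability: Lonp1 joined without K320E-skm 4, Clpx without wild-type 3 and Hspa9 without wild-type 4. After rescaling or quantile normalization it was Lonp1 in place of Yme1l1. The cause of these differences between libraries was not tested.

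Same-numbered libraries of the genotypes correlated at 0.156, 0.0233, 0.0442 and 0.0395 in their deviations across genes. Libraries of different number correlated at −0.130 to 0.0905. These values do not settle whether the replicate numbers pair the libraries, so both designs were fitted. With the replicate block in place of the sex term, 0 members and 0 other genes were called and the median of the members was 0.05. Yme1l1 was the 1 member that differed in the same direction in all 4 numbered pairs (exact sign-flip p = 0.125, the smallest possible). Its groups did not overlap as deposited, so every pairing of the libraries would give this result. The files give no counts, so what depth limits cannot be stated.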
